A study of Mus musculus with 12 samples.

Results

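Genes that sense RNA in the cytosol, or pass its signal on, were examined in A20 tumors after intratumoral injection. The 6 genes were chosen by name: Ddx58, Ifih1, Dhx58, Mavs, Tbk1 and Ddx60. Of these, 5 had a row among the 770 genes of the table and were measured in every tumor. Dhx58 was not analysed here. A20 is a B-cell lymphoma line of the Balb/c strain, and its cells were implanted under the skin of female Balb/c mice. About 7 days later the tumors of 4 mice per group were injected with PBS, with GLA-SE or with SE, every other day and 3 times in all, and were collected 2 h after the last injection. GLA-SE, also called G100, holds 10 µg of the Toll-like receptor 4 agonist GLA in 50 µl of a 2% oil-in-water stable emulsion. SE is that emulsion without GLA, so that GLA-SE against SE isolates the agonist and SE against PBS the emulsion.

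RNA was measured on a NanoString mouse panel of immune and cancer genes (PanCancer Immune), in which a color-coded probe binds each transcript and is counted without amplification. In the cytosol RIG-I, encoded by Ddx58, and MDA5, encoded by Ifih1, bind double-stranded RNA and engage the mitochondrial adaptor MAVS. MAVS recruits kinases, TBK1 among them, that phosphorylate interferon regulatory factors and switch on type I interferon, and interferon in turn raises transcription of the sensors. TBK1 also serves Toll-like receptor 4 through the adaptor TRIF, encoded by Ticam1.

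The proximal promoters of the measured genes are shown first. The interferon-stimulated response element (ISRE) is the DNA sequence that interferon-activated factors bind, and its core was searched as GAAANNGAAA on both strands, from 250 bases before to 50 bases after each RefSeq transcription start (GRCm38.p6). All 5 measured genes had 1 such window. Ddx60 held 2 matches, Ddx58 and Ifih1 held 1 each, and Mavs and Tbk1 held 0. Of all 32851 windows 3.44% held the core, and of the 676 windows of genes on the panel 7.4%. The last 120 bases before the start of Ddx60, Mavs and Tbk1 are given 5′ to 3′, with matches in capitals.
Ddx60, chr8:61927967-61928086, plus strand: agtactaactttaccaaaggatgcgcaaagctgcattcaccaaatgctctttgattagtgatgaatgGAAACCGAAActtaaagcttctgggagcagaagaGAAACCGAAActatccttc
Mavs, chr2:131233943-131234062, plus strand: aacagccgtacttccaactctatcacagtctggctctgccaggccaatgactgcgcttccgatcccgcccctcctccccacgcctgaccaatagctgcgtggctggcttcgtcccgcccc
Tbk1, chr10:121586795-121586914, minus strand: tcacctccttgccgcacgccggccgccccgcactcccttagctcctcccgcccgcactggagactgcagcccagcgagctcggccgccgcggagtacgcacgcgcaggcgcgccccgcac
The Ddx60 matches began 53 and 19 bases before the start. The matches in Ddx58 and Ifih1 lay just after it, the first on the opposite strand from the gene, and are shown in capitals with their flanks, read on the strand of the gene.
Ddx58, chr4:40239804-40239833, minus strand: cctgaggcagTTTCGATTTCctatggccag
Ifih1, chr2:62646206-62646233, minus strand: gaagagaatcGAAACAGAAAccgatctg
GC content of the 250 bases before the start was 46%, 50% and 53.6% for Ddx60, Ifih1 and Ddx58 and 65.2% and 68.4% for Mavs and Tbk1. The motif matches are of letters in a window, and binding was not measured. Whether the matches bear on the response of these genes was not tested.

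Total counts were 812522 to 1086462 in PBS, 1186487 to 1612415 in GLA-SE and 810260 to 1268512 in SE tumors. Levels below are scaled counts, that is counts multiplied so that the geometric mean of 16 reference genes was equal in every tumor. That mean was 926.6 before scaling in SE replicate 4 and 1501 to 2806 in the other SE tumors, so SE replicate 4 was multiplied most. Most of the panel was higher after GLA-SE on this scale: 513 of 750 genes were higher and 3 lower than in PBS, with a median log2 fold change of 0.90. Counts of different genes depend on their probes, so levels are compared between tumors and not between genes.

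GLA-SE against PBS asks what the complete drug did to the pathway. The sensors Ddx58 and Ifih1 and the related helicase Ddx60 were about 2.63-fold to 3.15-fold higher in GLA-SE tumors. Ddx60 is grouped with the sensors below for brevity, and its role in sensing was not examined. The adaptor Mavs and the kinase Tbk1 were 1.33-fold and 1.47-fold higher. All 5 of the 5 measured genes rose and none had overlapping groups. On this scale 68.4% of the 750 genes were called higher and 63.7% were higher without overlap, so the count of members did not stand out from the panel. The size did divide them: the sensors lay above the median change of the panel, and Mavs and Tbk1 below it.

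Ddx58, the gene of RIG-I, had scaled counts of 207, 177, 185 and 209 in the 4 PBS tumors. In GLA-SE tumors they were 482, 488, 633 and 448. Every GLA-SE tumor exceeded every PBS tumor. The means were 513 ± 82.0 and 195 ± 15.7 (SD, n = 4 each), and the log2 fold change was 1.40 (SE 0.15, adjusted p = 0.000233, edgeR's quasi-likelihood test with Benjamini-Hochberg adjustment). This change exceeded that of 74.8% of the panel.

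Ifih1, the gene of MDA5, which prefers longer double-stranded RNA than RIG-I does, stood at 162, 153, 121 and 157 in PBS tumors. It stood at 333, 420.3, 608 and 341 in GLA-SE tumors, with replicate 3 the highest as for Ddx58. The log2 fold change was 1.52 (SE 0.23, edgeR adjusted p = 0.000701). The GLA-SE tumors varied more for this sensor (coefficient of variation 30.1%) than for Ddx58 (16%). The difference of the coefficients was not tested.

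Ddx60, an interferon-inducible helicase related to RIG-I and MDA5, had the lowest counts of the members, 33 to 58 before scaling in PBS tumors, and so the largest counting error. Its scaled counts were 53.1, 33.6, 24.1 and 46.1 in PBS tumors. In GLA-SE tumors they were 111, 132, 139 and 112. The lowest GLA-SE tumor was above the highest PBS tumor. The log2 fold change of 1.66 (SE 0.27, edgeR adjusted p = 0.00107) exceeded that of 83.6% of the panel.

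Mavs, the adaptor through which both RIG-I and MDA5 signal, had scaled counts of 444, 405, 457 and 367 in PBS and 538, 561, 592 and 529 in GLA-SE tumors. The groups did not overlap, but the difference was small beside that of the sensors. The log2 fold change was 0.41 (SE 0.12, edgeR adjusted p = 0.0136), which exceeded that of 23.3% of the panel. The call was lost with all 12 tumors in 1 fit (0.41, edgeR adjusted p = 0.0542), and it depended on how tumors were put on 1 scale. As deposited, Mavs counts were 468, 434, 625 and 462 in PBS and 556, 539, 536 and 517 in GLA-SE tumors, and PBS replicate 3 was then the highest of the 8.

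Tbk1, the kinase shared by RNA sensing and Toll-like receptor 4, had scaled counts of 361, 334, 365 and 352 in PBS tumors, with a coefficient of variation of 3.88%, the lowest of any member in any group. In GLA-SE tumors they were 471, 500.5, 630.4 and 478, with replicate 3 again the highest. The log2 fold change was 0.56 (SE 0.13, edgeR adjusted p = 0.00627), which exceeded that of 33.9% of the panel. For all 5 genes an exact permutation of the 8 tumors between the groups, 70 ways in all, gave p = 0.0286, the smallest that this design allows.

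**Figure D1:**
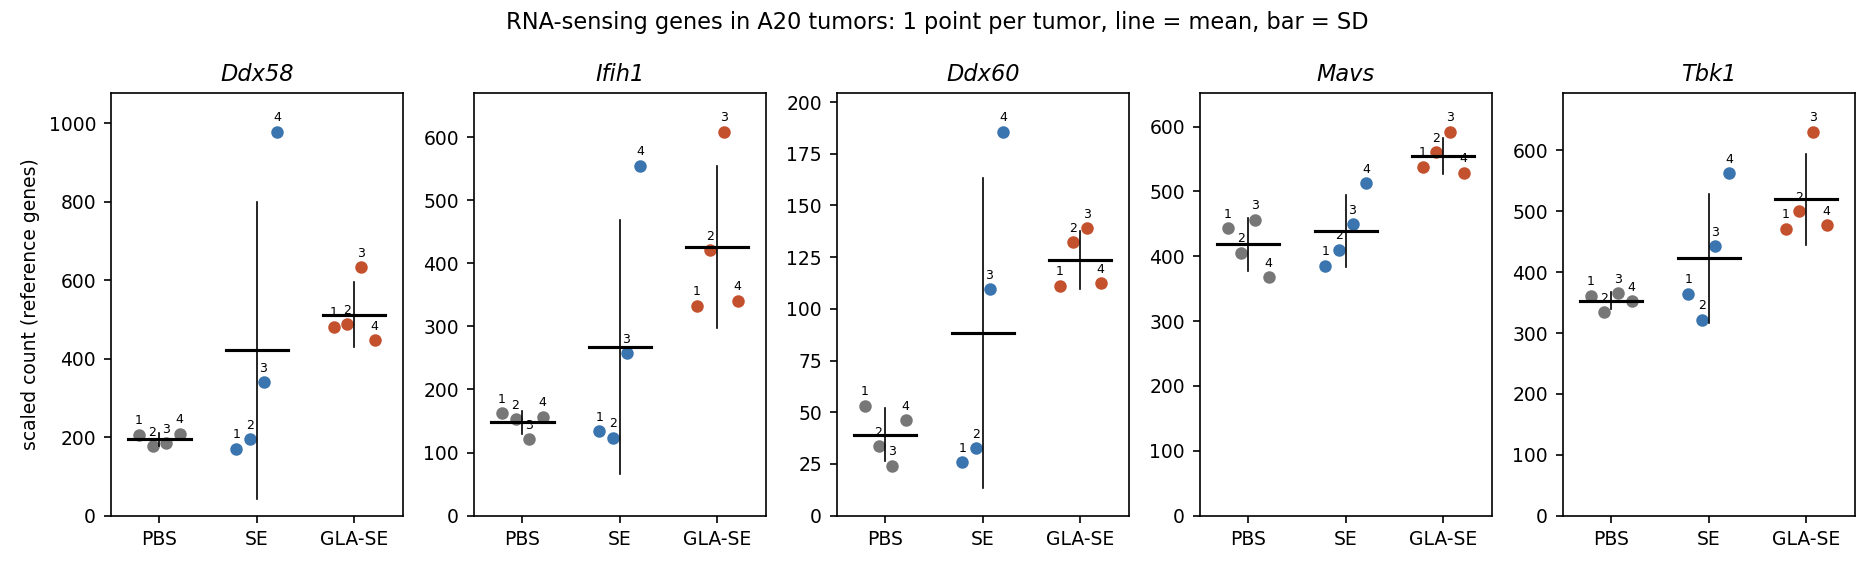
Scaled counts (vertical axes, linear, each starting at 0) of the 5 measured genes in PBS, SE and GLA-SE tumors, with 1 numbered point per tumor, the mean as a line and the SD as a bar (n = 4). GLA-SE tumors lay above all PBS tumors for each gene, and SE replicates 3 and 4 lay above SE replicates 1 and 2 for each gene.

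The directions of Mavs and Tbk1 were relative to the scale used. With TMM scaling, which takes most genes as unchanged, the median of the panel was -0.01 and the sensors were still higher, by log2 0.48 for Ddx58, 0.58 for Ifih1 and 0.76 for Ddx60. Mavs was then lower by log2 fold change -0.51 (edgeR adjusted p = 0.0147) and Tbk1 by -0.37 (edgeR adjusted p = 0.0308). With each tumor scaled to the median of the panel, Mavs was at -0.89 and Tbk1 at -0.75 (edgeR adjusted p = 0.00203 for both). On that scale the sensors did not pass the test, at 0.10 for Ddx58, 0.19 for Ifih1 and 0.40 for Ddx60 (edgeR adjusted p = 0.585, 0.352 and 0.153). The sensors were above Mavs and Tbk1 under each of these scalings. A change of scale moves all genes of a tumor alike, so this order restates the same observation and is no separate support. Which of the genes counted as changed was set by the scale.

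**Figure D2:**
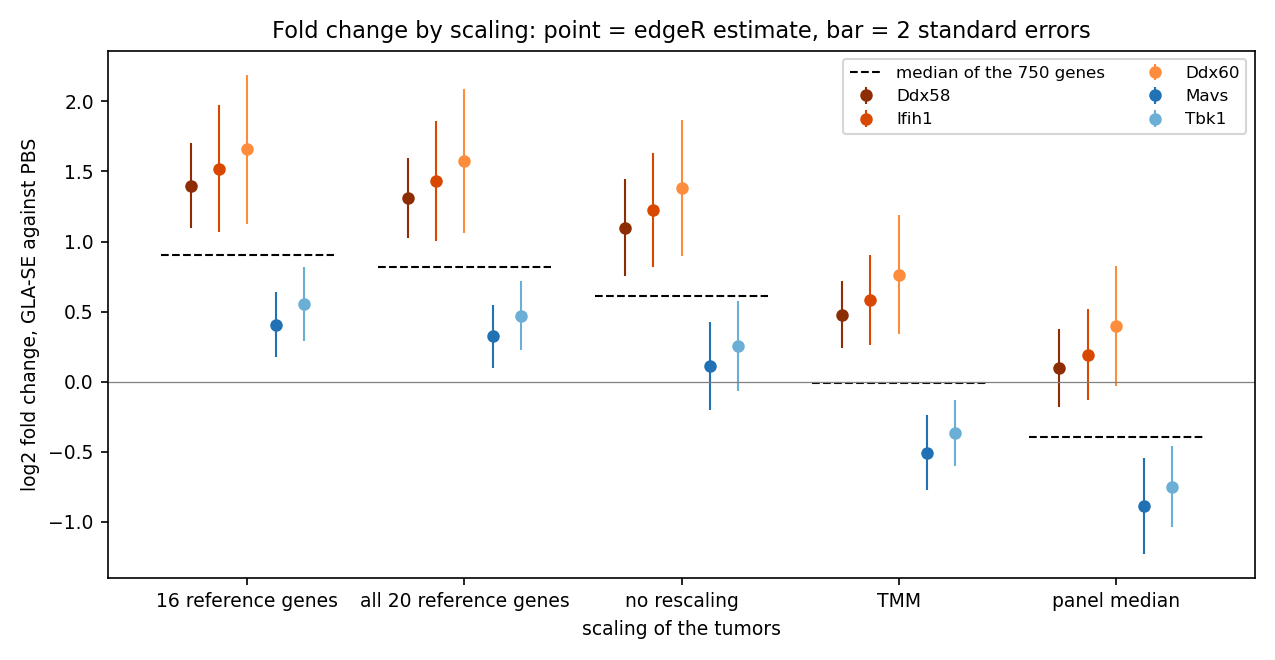
Log2 fold change (vertical axis) of the 5 measured genes in GLA-SE against PBS tumors under 5 ways of scaling the tumors (horizontal axis). Points are edgeR estimates, bars are 2 standard errors and dashed lines are the median of the 750 genes. Ddx58, Ifih1 and Ddx60 lay above the dashed line and Mavs and Tbk1 below it under each scaling, while the position of 0 moved. Scaling moves all genes of a tumor alike, so these positions are not independent between scalings.

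The ratio of 2 counts within 1 tumor does not depend on the scale, so each sensor was also divided by Mavs. The log2 ratio of Ddx58 to Mavs was -1.10, -1.19, -1.30 and -0.81 in PBS tumors and -0.16, -0.20, 0.10 and -0.24 in GLA-SE tumors. The groups did not overlap, and the difference was 0.97 (exact permutation p = 0.0286, n = 4 each). The ratio of Ifih1 to Mavs rose by 1.07, from -1.49 ± 0.29 to -0.42 ± 0.33 (SD, n = 4 each, exact permutation p = 0.0286). That of Ddx60 rose by 1.28, from -3.44 ± 0.57 to -2.16 ± 0.10 (exact permutation p = 0.0286). All 3 sensors were higher relative to Mavs without overlap, as were 35.1% of the 749 other panel genes. Tbk1 to Mavs differed by 0.14, with overlapping groups (-0.24 ± 0.12 in PBS and -0.10 ± 0.13 in GLA-SE tumors, SD, n = 4 each, exact permutation p = 0.143). The p-values of these ratios are not adjusted, and 12 ratio comparisons were computed over the 3 pairs of groups.

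**Figure D3:**
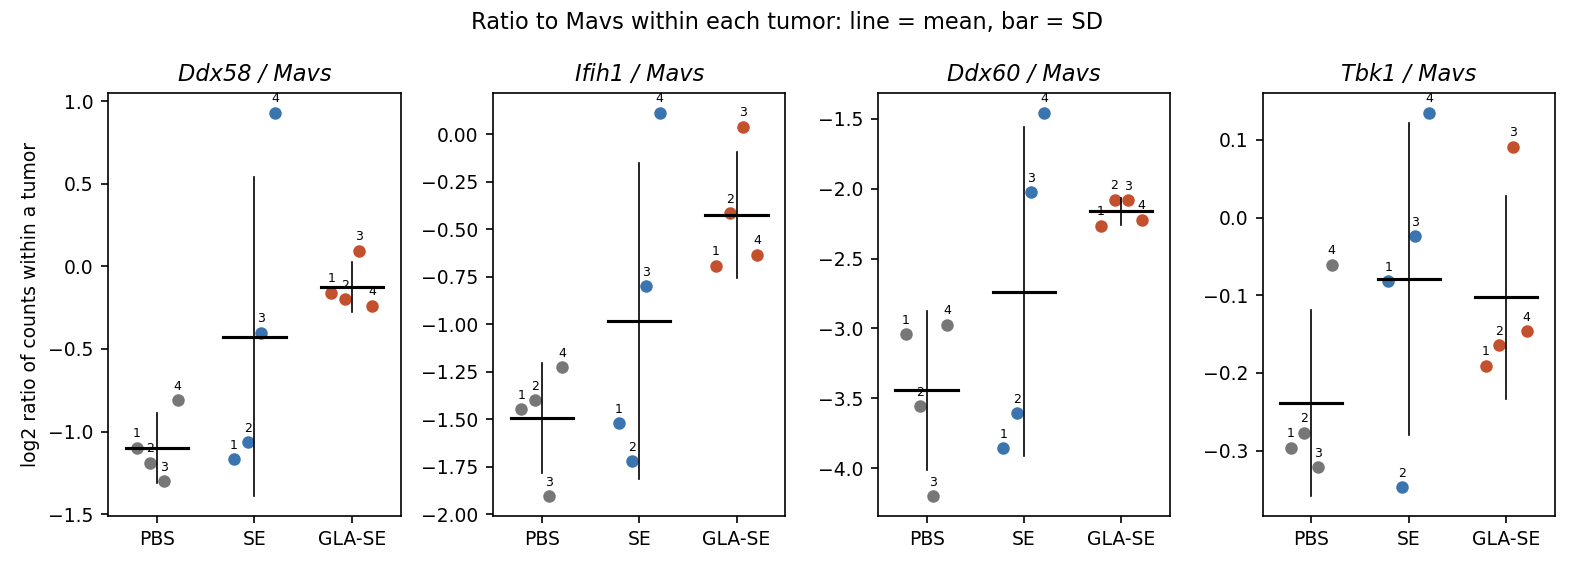
Log2 ratio of the deposited count of Ddx58, Ifih1, Ddx60 and Tbk1 to that of Mavs within each tumor (vertical axes, each with its own range), with 1 numbered point per tumor, the mean as a line and the SD as a bar (n = 4). For the 3 sensors the GLA-SE tumors lay above all PBS tumors, whereas SE tumors spanned both groups.

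SE against PBS asks what the emulsion did alone, and it shares the PBS tumors with the comparison above. None of the 5 measured genes passed the test (0 also at an unadjusted p under 0.05 by edgeR, and 0 by DESeq2), and 0% of the 750 genes were called higher by edgeR, with 134 of them at an unadjusted p under 0.05. The SE tumors fell far apart. SE replicates 1 and 2 were near the PBS tumors, replicate 3 was above both for all 5 genes, though within the PBS range for Mavs, and replicate 4 was the highest of the 4 SE tumors for all 5 genes.

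For Ddx58 the SE tumors had scaled counts of 171, 195, 340.0 and 978, and replicate 4 exceeded every GLA-SE tumor. The log2 fold change against PBS was 1.11 (SE 0.55, edgeR adjusted p = 0.256), with an interval of 2 standard errors from 0.0088 to 2.21. Ifih1 was at 134, 124, 258 and 555 and differed by 0.85 (SE 0.49, edgeR adjusted p = 0.301, interval -0.14 to 1.83). Ddx60 was at 26.0, 32.7, 109.6 and 186 and differed by 1.16 (SE 0.66, edgeR adjusted p = 0.292, interval -0.17 to 2.49). These intervals run from about no difference to changes as large as those after GLA-SE, so the test does not show that the emulsion left the sensors alone. Without SE replicate 4 the estimates for Ddx58, Ifih1 and Ddx60 were 0.27, 0.21 and 0.50. They also shrank with every tumor in, to 0.37, 0.16 and 0.43 with TMM scaling, 0.25, 0.064 and 0.30 with the panel median and 0.38, 0.20 and 0.45 without rescaling, and none passed.

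Mavs and Tbk1 spread less. Mavs was at 386, 410.0, 449.6 and 512 in SE tumors, and its log2 fold change was 0.07 (SE 0.17, edgeR adjusted p = 0.771, interval -0.26 to 0.40). Tbk1 was at 364, 322, 442 and 563, with a log2 fold change of 0.26 (SE 0.21, edgeR adjusted p = 0.412, interval -0.16 to 0.68). Both changes turned negative, still short of the threshold, with TMM or panel median scaling. The coefficient of variation over the SE tumors was 12.6% for Mavs and 25% for Tbk1, beside 89.9% for Ddx58, 75.1% for Ifih1 and 84.8% for Ddx60. The SE and PBS groups overlapped for all 5 genes, and 8% of the panel was higher in SE without overlap. Relative to Mavs, the sensors differed by 0.67, 0.51 and 0.71 for Ddx58, Ifih1 and Ddx60 (exact permutation p = 0.2, 0.314 and 0.343, n = 4 each), and 4.54% of the panel was higher without overlap.

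GLA-SE against SE asks what GLA added to the emulsion. None of the 5 measured genes passed the edgeR test in this comparison (0 also at an unadjusted p under 0.05, and 0 by DESeq2), where 2.13% of the panel was called higher. The log2 fold changes were 0.29 for Ddx58 (SE 0.55, edgeR adjusted p = 0.872), 0.67 for Ifih1 (SE 0.52, edgeR adjusted p = 0.578) and 0.50 for Ddx60 (SE 0.63, edgeR adjusted p = 0.735). For Ddx58 the interval of 2 standard errors ran from -0.81 to 1.38 and that of Ifih1 from -0.36 to 1.70, so neither placed GLA-SE above or below the emulsion, and Ddx58 was at -0.16 with the panel median. Mavs differed by 0.34 (SE 0.18, edgeR adjusted p = 0.380), and by -0.13 with TMM scaling. On the reference scale it was the only member whose groups did not overlap (exact permutation p = 0.0286, n = 4 each), as was so for 14.7% of the panel. Tbk1 differed by 0.30 (SE 0.24, edgeR adjusted p = 0.608).

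SE replicate 4 decided this result for Ddx58. Without it Ddx58 was higher in GLA-SE tumors by log2 1.12 (edgeR adjusted p = 0.0479), and 105 panel genes were called in place of 16. Ifih1 was then at 1.31 (edgeR adjusted p = 0.0557) and Ddx60 at 1.15, and neither passed. With GLA-SE replicate 3 left out as well, a choice made after seeing the data, Ddx58 was at 1.01 (edgeR adjusted p = 0.0821) and 0 members were called. Ratios to Mavs overlapped for all 3 sensors with every tumor in, at differences of 0.30, 0.56 and 0.58, where 8.14% of the panel was higher without overlap. Tbk1 to Mavs differed by -0.02 (exact permutation p = 0.914, n = 4 each). No technical fault of SE replicate 4 is known from the labels, and it was kept.

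The other genes of the pathway were taken from lists by role, and their direction too was relative to the scale. On the reference scale 68.4% of the 750 panel genes were called higher in GLA-SE against PBS, the share to set beside each list. With TMM scaling 148 of the 750 were called higher and 168 lower, and with the panel median 61 and 307. Of 11 partners and kinases that act with or after Mavs, 7 rose and 0 fell in GLA-SE against PBS tumors, with a median log2 fold change of 0.46 over the list, below the 0.90 of the panel, whereas with TMM scaling 1 rose and 8 fell, and with the panel median 0 rose and 10 fell. The largest of them was Ikbke, which encodes IKKε, the inducible relative of TBK1, at 1.68 (SE 0.23, edgeR adjusted p = 0.000489), and it was the 1 that rose with TMM scaling. Its mean rose from 98.8 ± 14.8 to 316 ± 90.3 scaled counts (SD, n = 4 each). Tmem173, which encodes STING of the DNA-sensing route, rose by 0.93, Tank, a scaffold of TBK1, by 0.85 and Ikbkb, a kinase of the NF-κB route, by 0.49. Among 4 transcription factors, Irf7, the interferon-inducible factor, rose by 1.69 (SE 0.18, edgeR adjusted p = 0.000229), Nfkb1 by 0.45 and Rela by 0.46, but Nfkb1 and Rela, and with them Irf3, fell with TMM and panel median scaling, and Irf7 rose with TMM scaling and did not pass with the panel median. Irf3, present before stimulation and a substrate of TBK1, was at 0.09 on the reference scale (edgeR adjusted p = 0.355), where its groups did not overlap.

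All 7 regulators of RNA sensing rose, with a median of 0.60, against 1 that rose and 3 that fell with TMM scaling and 1 and 4 with the panel median. Among them were Isg15, a ubiquitin-like modifier, at 2.19, Tnfaip3, the NF-κB inhibitor A20 (a protein that shares only its name with the tumor line), at 1.86, Nlrc5 at 1.24 and the deubiquitinase Cyld at 0.60. Of 15 antiviral effectors induced by interferon, 14 rose, with a median of 1.36, against 6 that rose and 0 that fell with TMM scaling and 2 and 3 with the panel median. The median of this list lay 0.46, 0.49 and 0.51 above that of the panel under the 3 scalings, much as Ddx58 did. Scaling moves all genes of a tumor alike, so the 3 gaps restate the same observation. The nucleic acid sensor Zbp1 was at 1.55, Xaf1 at 1.32, the virus-tethering protein Bst2 at 0.89 and the RNA-activated synthetase Oas2 at 1.78. Mx1, near the lower end of counts, was at 0.24 (edgeR adjusted p = 0.579). All 6 genes of the interferon receptor and its signaling rose on the reference scale, among them Ifnar2 at 1.17, Stat2 at 0.80 and Ifnar1 at 0.93. Their median of 0.86 was near the 0.90 of the panel, of which 68.4% was called higher on that scale. With TMM scaling 1 of these genes rose and 0 fell, and with the panel median 0 rose and 3 fell.

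The interferons themselves were hardly counted. Deposited counts of Ifna1, Ifna2, Ifna4, Ifnb1 and Ifnl2 were between 6 and 82 in all 12 tumors, 0 of 5 passed by edgeR in any comparison on the reference scale (0 also at an unadjusted p under 0.05), and in GLA-SE against PBS their log2 fold changes ran from -0.35 to 0.32. With TMM scaling 3 of the 5 were lower, and with the panel median all 5 were. By DESeq2 2 passed in that comparison with its own size factors and 0 with those of the reference genes. Such counts allow little precision, and tumors were sampled at 1 time only. Of 6 endosomal RNA receptors and adaptors of Toll-like receptors, 4 rose on the reference scale, where 68.4% of the panel was called higher. With TMM scaling 1 rose and 1 fell, and with the panel median 0 rose and 3 fell. The 4 on the reference scale were the single-stranded RNA receptors Tlr8 (1.60) and Tlr7 (1.31), and the adaptors Myd88 (0.81) and Ticam1 (0.54). Tlr3, the endosomal receptor for double-stranded RNA, was at 0.65 (edgeR adjusted p = 0.0517).

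In SE against PBS 0 of the 54 genes of these 7 lists passed by edgeR, with 7 at an unadjusted p under 0.05. By DESeq2 0 or 4 passed with its own or with reference gene size factors. Of the 750 panel genes, 134 were at an unadjusted p under 0.05, and 9 or 53 passed by DESeq2. In GLA-SE against SE 2 of the 54 passed by edgeR, where 2.13% of the panel was called higher, among them Zbp1 at 1.22 (SE 0.24, edgeR adjusted p = 0.0442). At an unadjusted p under 0.05 there were 8, and 4 or 6 passed by DESeq2 with its own or with reference gene size factors. The panel held 139 of 750 genes at an unadjusted p under 0.05 in this comparison, and 72 or 108 passed by DESeq2. The counts of the lists thus did not stand out from the panel.

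**Figure D4:**
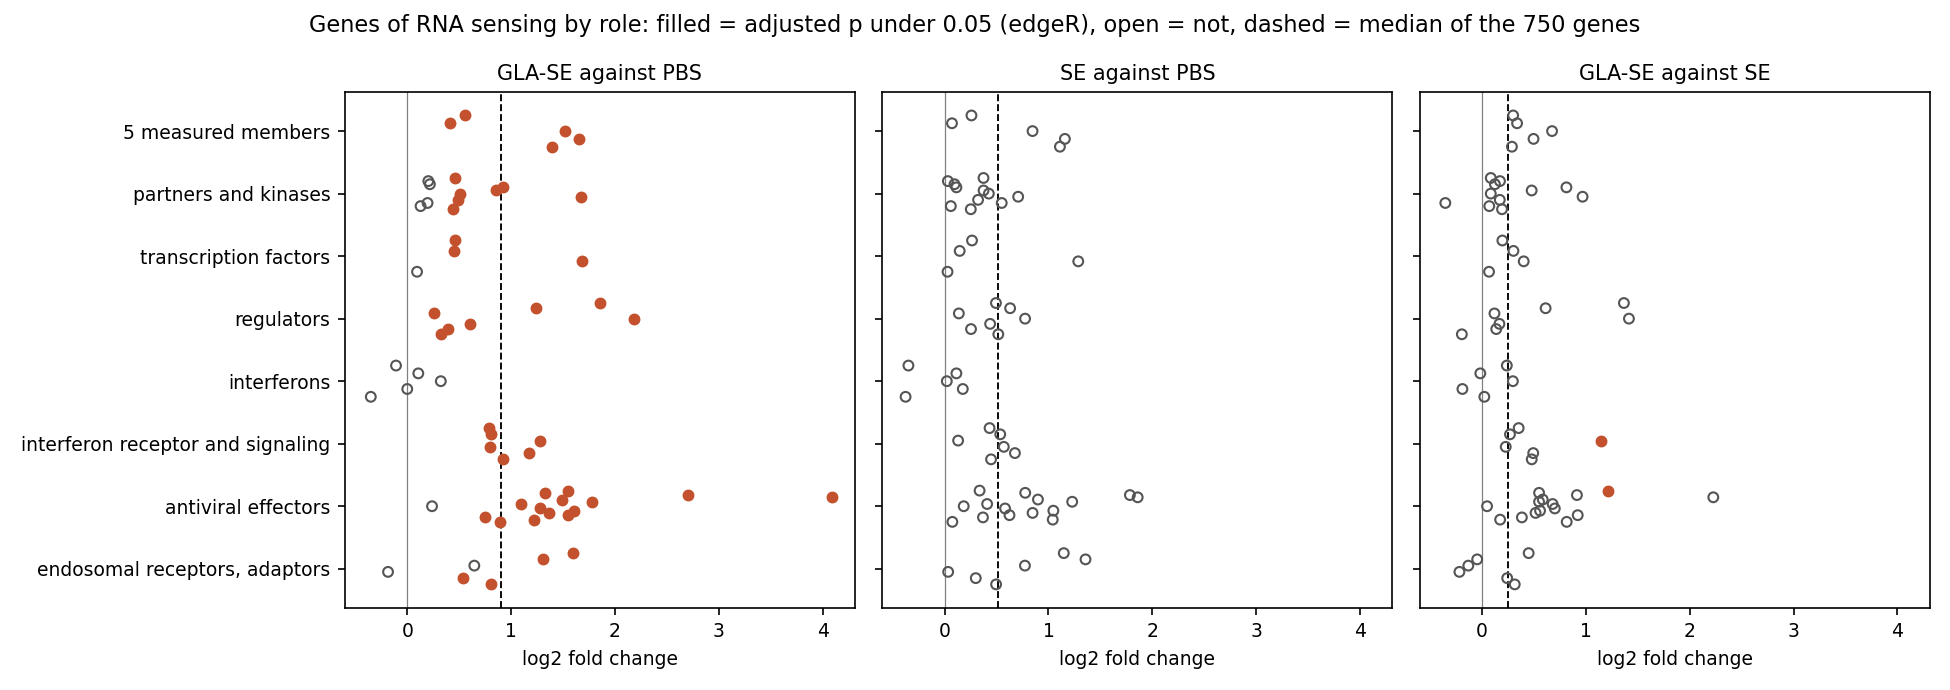
Log2 fold change (horizontal axes) of the 5 measured genes and of 7 lists of pathway genes by role (vertical axis) in the 3 comparisons, with 1 point per gene, filled where the edgeR adjusted p was under 0.05. The dashed line is the median of the 750 genes, at 0.90, 0.51 and 0.25 from left to right. Filled points are frequent on the left, absent in the middle and 2 in number on the right.

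The tumors were measured in bulk, where fewer cells of a type and less RNA per cell cannot be told apart. The A20 label was borne out by B-cell markers (Ms4a1, Cd79b and 6 others), whose summed scaled counts were 25389 to 29052 in PBS, 23127 to 25867 in GLA-SE and 18094 to 27692 in SE tumors. Markers of several other cell types moved with the sensors. Of monocytes and macrophages all 9 rose in GLA-SE against PBS on the reference scale, where 68.4% of the panel was called higher. All 9 also rose with TMM scaling, and 2 with the panel median. Of the 750 panel genes 148 rose and 168 fell with TMM scaling, and 61 rose and 307 fell with the panel median. Their sum was 32521 to 41052 in PBS and 91903 to 134333 in GLA-SE tumors. In SE replicates 1 to 4 it was 27633, 34208, 82576 and 119031, so that SE replicates 3 and 4 were above replicates 1 and 2 for these markers as they were for all 5 members. Lyz2 made up 74.6% to 84% of the sum, and none of the markers was at 0.

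Per 1000 scaled counts of this marker sum, Ddx58 was at 5.03 to 5.68 in PBS, 4.71 to 5.21 in GLA-SE and 4.12 to 8.22 in SE tumors. Ifih1 was at 3.73 to 4.55 in PBS, 3.60 to 4.53 in GLA-SE and 3.12 to 4.85 in SE tumors. Ddx60 was at 0.741 to 1.29 in PBS, 1.04 to 1.34 in GLA-SE and 0.94 to 1.56 in SE tumors. The ranges of PBS and GLA-SE tumors overlapped for the 3 sensors, although their scaled counts did not. Mavs was at 9.89 to 14.0 in PBS and 4.41 to 5.82 in GLA-SE tumors. Tbk1 was at 8.80 to 11.2 and 4.69 to 5.20, so both were lower on this measure in every GLA-SE tumor. Any gene that rises less than the marker sum must be lower on it. Over the 9 markers the median log2 fold change was 1.61, above the 0.90 of the panel. Per 1000 of their geometric mean the ranges of the sensors also overlapped. Ddx58 was then at 199 to 241 in PBS and 148 to 205 in GLA-SE tumors. Ifih1 was at 149 to 175 and 125 to 153, and Ddx60 at 31.4 to 52.7 and 32.6 to 48.1. How the other panel genes lay on either measure was not computed. These ratios were chosen after the values were seen and carry no test.

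The SE tumors stood in the same order for marker sums of endothelium and fibroblasts, neutrophils, T cells and NK cells, but not of all types. Dendritic cell sums were 776, 856, 853 and 658 in SE replicates 1 to 4. B-cell sums were 25536, 27692, 22458 and 18094, so replicate 4 was lowest for both. The 8 markers of endothelium and fibroblasts all rose in GLA-SE against PBS on the reference scale (2 with TMM scaling, 0 with the panel median), with sums of 4049 to 9185 in PBS, 18094 to 26385 in GLA-SE tumors and 3479, 4346, 27968 and 119402 in SE replicates 1 to 4. Neutrophil markers rose for 4 of 9 (4 rose and 1 fell with TMM scaling, 3 and 5 with the panel median), with sums of 294 to 354 in PBS, 1262 to 11474 in GLA-SE tumors and 292, 312, 863 and 4702 in SE replicates 1 to 4. Markers of T cells rose for 4 of 8, of NK cells for 4 of 7 and of dendritic cells for 1 of 4, while of the 8 B-cell markers 1 rose and 2 fell. These counts are on the reference scale, where 68.4% of the panel was called higher. With TMM scaling, and likewise with the panel median, 0 markers of these types rose, while 2 of NK cells, 2 of dendritic cells and all 8 of B cells fell. On those scales 168 and 307 of the 750 panel genes fell, and 148 and 61 rose. The part of these cell types in the level of the sensors was not tested.

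The genes most like each member over the 12 tumors were found among 698 panel genes by the root mean square difference of log2 levels, each taken relative to the PBS mean. Ddx58 was closest to Bcl2 (0.17) and Cd84 (0.20), and Ifih1 to Ikbke (0.16) and Bcl2 (0.18). Ddx60 was closest to Oas2 (0.18) and Csf1r (0.24), the latter a monocyte and macrophage marker. Mavs was closest to Ripk2 (0.12) and Ptprc (0.13), and Tbk1 to Ctsh (0.068) and Ikbkb (0.095). These are descriptions over tumors that share the scaling.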

How the data were processed

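RNA of 12 A20 tumors, 4 each injected with PBS, GLA-SE or SE according to the sample labels, was measured on the NanoString mouse PanCancer Immune panel. The authors deposited counts of barcoded probes for 770 genes. Although the methods name normalization in nSolver, these values are whole numbers, and both their totals and their reference genes differ among tumors; they were handled as raw counts. The assay involves no alignment.

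The geNorm procedure over all 12 tumors kept 16 of 20 reference genes, and tumors were scaled to their geometric mean. Groups were compared pairwise with edgeR 4.0.16 in R 4.3.3 (quasi-likelihood test, two-sided, no covariate, no filter on low counts), adjusted by Benjamini-Hochberg over 750 genes, threshold 0.05. Standard errors are the absolute log2 fold change over the square root of F. Log2 ratios used counts plus 1. Exact permutation tests over 70 assignments were two-sided. Precision is limited by counts per gene and by 4 tumors per group. Alternatives used DESeq2 1.42.0, limma 3.58.1 and other scalings. The fits were tested on simulated data.

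The members and lists were chosen with earlier results of these data known. All members are named whatever their values, up to 4 genes per pathway list by lowest adjusted p in GLA-SE against PBS, and the 2 genes most like each member. Other genes named (Mx1, Tlr3, Ifna2 and Lyz2) were chosen after their values were seen. The values of 1 gene of the lists are not reported here. Promoter windows are those of RefSeq on GRCm38.p6. Plots were made in Python 3.11.15 (matplotlib 3.10.9).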

Additional observations from a re-analysis of the deposited data

How the results depend on the processing

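The number of members higher in GLA-SE against PBS was 5 with the main scaling and 0 with scaling to the panel median (2 lower), 3 with TMM scaling (2 lower), 3 without rescaling (0 lower) and 3 by DESeq2 with its own size factors (2 lower). With DESeq2's own size factors Mavs was at -0.44 and Tbk1 at -0.31, and without rescaling at 0.11 and 0.25 (neither called). With TMM they were at -0.51 and -0.37, and with the panel median at -0.89 and -0.75. All 12 tumors in 1 fit left Mavs at 0.41 (edgeR adjusted p = 0.0542). Leaving out each tumor gave 5 members called in each of the 8 fits, with Ddx58 at 1.28 to 1.46, Ifih1 at 1.30 to 1.62, Ddx60 at 1.48 to 1.84, Mavs at 0.35 to 0.45 and Tbk1 at 0.45 to 0.60.

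In SE against PBS the direction of Mavs and Tbk1 turned with the panel median (-0.32 and -0.21), TMM (-0.34 and -0.21), no rescaling (-0.32 and -0.17) and DESeq2's own size factors (-0.29 and -0.15), and that of Mavs in the fit that left out SE replicate 4 (-0.011, in a range of -0.011 to 0.13 over the 8 such fits). In GLA-SE against SE it turned for Ddx58, Mavs and Tbk1 with the panel median (-0.16, -0.57 and -0.54), and for Mavs and Tbk1 with TMM (-0.13 and -0.12) and DESeq2's own size factors (-0.21 and -0.20). None of these passed the test in either comparison. The cause was not tested. Leaving out each tumor gave 0 to 1 members called in GLA-SE against SE, and differences in the log2 ratio to Mavs of 0.054 to 0.75 for Ddx58 and 0.31 to 0.92 for Ifih1. The highest of these came without SE replicate 4, where the groups no longer overlapped for both ratios (exact permutation p = 0.0286, the smallest that 4 against 3 tumors allow). The share of the other panel genes without overlap among those tumors was not computed, so this separation cannot be called particular to the sensors.

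The panel calls in GLA-SE against PBS were 516 in the main fit (513 higher, 3 lower), 316 with TMM (148 and 168), 368 with the panel median (61 and 307), 342 by DESeq2 with its own size factors (190 and 152) and 255 with all 12 tumors in 1 fit. Those in SE against PBS were 0, but 9 and 53 by DESeq2 with its own and with reference gene size factors. Those in GLA-SE against SE were 16, but 0 with the panel median, 3 with TMM, 89 without rescaling, 72 and 108 by DESeq2, 25 by limma with a pseudocount of 10, 79 with all 12 tumors in 1 fit and 4 to 105 with 1 tumor left out. The count was 4 in the fit that left out GLA-SE replicate 2, GLA-SE replicate 4 or SE replicate 3, 9 in that without SE replicate 1, 7 when SE replicate 2 was dropped and 105 when SE replicate 4 was. Leaving out both GLA-SE replicate 3 and SE replicate 4, chosen after seeing the data, gave 52 and 0 members. The replicate numbers did not pair the tumors, which came from different mice: correlations of same-numbered deviations ran from -0.25 to 0.19. With the replicate number as a block 4 of 5 members were called in GLA-SE against PBS, Mavs being at 0.41 (edgeR adjusted p = 0.0556), and 0 panel genes in GLA-SE against SE.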
